A study of Mus musculus with 7 samples.

Results

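The enzymes that begin and extend mucin-type O-glycans were followed in bulk RNA-seq libraries of LT-HSCs, the long-term blood stem cells of mouse bone marrow. The 10 genes, of 34932 summed from the deposited transcripts, are a list made by function, with earlier results of these data known. They are 7 polypeptide GalNAc-transferases (Galnt1, Galnt2, Galnt3, Galnt6, Galnt7, Galnt10 and Galnt12), the core 1 galactosyltransferase C1galt1, its chaperone C1galt1c1 (Cosmc), and the core 2 branching enzyme Gcnt1. The 4 libraries labelled B4galt1 KO (genotype B4-/-, described by the submitters as a full knockout) were compared with the 3 labelled B4galt1 WT, on a mixed 129S1/C57Bl/6 background in both groups. The sort kept bone marrow cells with Sca-1, c-Kit and CD150 on their surface and left out cells with CD48 or lineage markers. The labels name no age or sex, no treatment, and do not say that each replicate is a separate animal, so the spread behind each p-value is that between libraries and may be technical in part.

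Mucin-type O-glycosylation starts in the Golgi, where a GalNAc-transferase places N-acetylgalactosamine on a serine or threonine. C1galt1 then adds galactose to form core 1, and it folds only with the help of Cosmc, a chaperone of the endoplasmic reticulum. Gcnt1 adds an N-acetylglucosamine branch to form core 2, on which B4galt enzymes can build a longer, sialylated chain. In mice, loss of C1galt1 or Cosmc from blood cells lowers platelet number and leaves truncated O-glycans on mucin-like surface proteins.

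The RNA of the targeted gene did not separate the groups. B4galt1 had 19.3, 14.9, 14.8 and 14.6 CPM in KO replicates 1 to 4, against 19.2, 24.4 and 11.3 CPM in WT replicates 1 to 3, where CPM is the estimated count scaled to the TMM-adjusted library size. The counts cover the whole gene and do not show whether a part of it is missing, so every direction here rests on the labels. Totals ran from 24724079 to 34941390 estimated reads in the KO libraries and from 23508985 to 30325691 in WT. LT-HSC genes such as Kit (208.8 to 327.2 CPM in KO, 254.6 to 390.6 CPM in WT) and Slamf1, which encodes CD150 (67.8 to 112.0 CPM in KO, 72.5 to 128.4 CPM in WT), were present in every library. Over the whole list of 16 stem and progenitor genes, 10 log2 fold changes were below 0 and the median was -0.34. Ranges were apart lower for 5 of the 16, such as Procr, Fgd5 and Mllt3. They were apart higher for 3 (Cd34, Flt3 and Cd48), beside 15.7% of all genes in either direction. The edgeR unadjusted p was below 0.05 for 3 higher and 5 lower genes, beside 14.6% of all genes. After adjustment 1 was called higher and 1 lower, beside 2.26% of all genes. Mllt3, a regulator of stem cell maintenance, fell (log2 fold change -1.15, edgeR adjusted p = 0.0128). Genes of the 9-member lineage list summed to 177.3 to 343.6 CPM in KO and 126.0 to 202.1 CPM in WT. Of these, 6 were tested and edgeR called 0. At an unadjusted p below 0.05, 2 of the 6 were higher (Itgam and Nkg7), beside 14.6% of all genes in either direction. Ly6g was at 0 reads in every library. The 12 granulocyte and monocyte genes summed to 632.1 to 796.4 CPM in KO and 762.7 to 897.2 CPM in WT. Of the 11 tested, 7 log2 fold changes were above 0 and the median was 0.56. Ms4a3 rose and S100a9 fell (edgeR adjusted p = 0.0232 and 0.0404), beside 2.26% of all genes called. The unadjusted p was below 0.05 for 5 higher and 3 lower genes, beside 14.6% of all genes. Ranges were apart higher for 3 and apart lower for 3, beside 15.7% of all genes. The part of these markers in the results below was not tested. Cd48, whose protein was selected against in the sort, was at 105.3 to 141.8 CPM in KO and 14.0 to 32.3 CPM in WT. This was a log2 fold change of 2.40 (SE 0.27, edgeR adjusted p = 0.000804). Summed Y-linked genes were at 10.9 CPM in KO replicate 4 and 6.04 CPM in WT replicate 3, and at 330.2 to 364.6 CPM in the other KO and 255.7 to 266.5 CPM in the other WT libraries. KO replicate 4 and WT replicate 2 differed most from the rest of their groups in gene counts.

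Of the 10 genes, 9 had enough reads to be tested, and edgeR called 0 of them at an adjusted p below 0.05, against 2.26% of all 14695 genes tested. At an unadjusted p below 0.05, 1 was higher (Galnt6) and 1 lower (C1galt1), beside 14.6% of all genes in either direction. For the same 2 genes the KO and WT ranges were apart, as they were for 15.7% of all genes tested. DESeq2, limma voom and a fit with sex as a covariate each called both, 1 higher and 1 lower, while DESeq2 called 5.9%, limma voom 4.82% and the sex covariate 4.18% of all genes. Galnt6 was also called higher with no filter on low counts, with a stricter filter and without WT replicate 1, where 0.4%, 0.739% and 0.258% of all genes were higher. C1galt1 was also called lower without KO replicate 1, where 1.58% of all genes were lower. The median log2 fold change of the 9 was 0.03, as over all genes (0.03), and the values ran from -1.01 to 1.13. The summed level of the 10 genes was 479.9 to 536.1 CPM in KO and 509.2 to 518.8 CPM in WT.

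**Figure D1:**
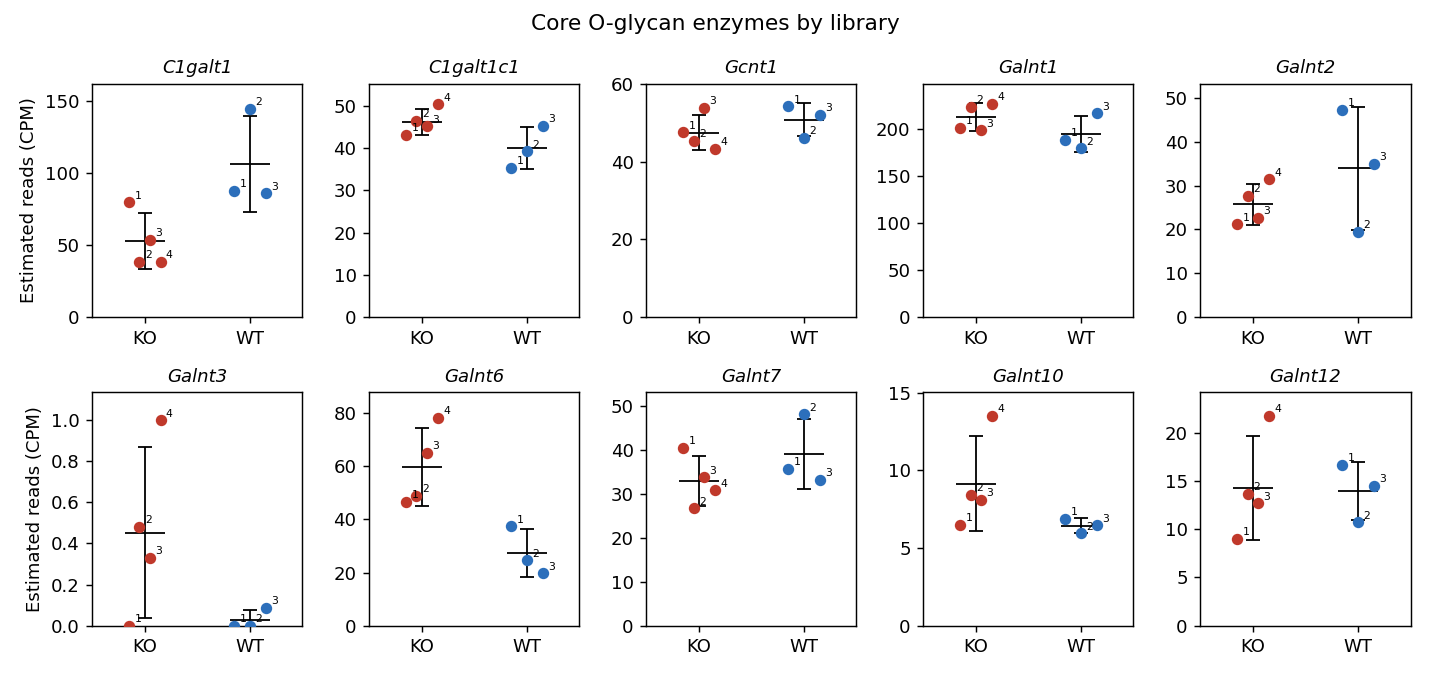
Estimated reads in CPM (y axis) of each of the 10 core O-glycan enzymes in 4 KO and 3 WT libraries (points, numbered by replicate, with mean and SD as bars). All 4 KO libraries lie below the 3 WT libraries for C1galt1 and above them for Galnt6, and the groups overlap for the other genes.

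C1galt1, the single enzyme that makes core 1, was lower in the KO libraries by a fold change that did not pass the edgeR test. It had 79.7, 38.6, 53.8 and 38.4 CPM in KO replicates 1 to 4, against 87.9, 144.7 and 86.1 CPM in WT replicates 1 to 3. KO replicate 1 lay close below the lowest WT library, and WT replicate 2 stood high above the other WT libraries. The means were 52.6 ± 19.5 CPM in KO (SD, n = 4) and 106.2 ± 33.3 CPM in WT (SD, n = 3). The log2 fold change was -1.01 (SE 0.28, 95% interval -1.64 to -0.39, edgeR adjusted p = 0.113). DESeq2 gave -1.03 and called it (adjusted p = 0.0148), and limma voom gave -0.88 and called it (adjusted p = 0.0419). It was also called by edgeR at -1.06 when sex was a covariate (adjusted p = 0.039) and at -1.30 when KO replicate 1 was left out (adjusted p = 0.0252). Without WT replicate 2 it was -0.75 (edgeR adjusted p = 0.349). With KO replicate 4 and WT replicate 2 both left out, an alternative chosen after seeing the data, it was at -0.62. The value was -1.001 in the 5 libraries with Y-linked expression (edgeR adjusted p = 0.155). The quantification holds 1 C1galt1 transcript, of 6092 nt, with 1043 to 2042 estimated reads in KO and 1997 to 3089 in WT, so no shift between transcripts could be measured. C1galt1 lies on the plus strand of chromosome 6 (7844842 to 7875687, GRCm38).

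Most platelet markers were also lower in KO. Of 18 megakaryocyte and platelet markers, edgeR called 15 lower and 0 higher at an adjusted p below 0.05. Over all 14695 genes tested it called 244 lower and 88 higher, 2.26% in either direction. The summed level of the 18 markers was 2663, 1939, 1820 and 1805 CPM in KO replicates 1 to 4, against 9567, 13808 and 7256 CPM in WT replicates 1 to 3. None of the 18 was at 0 in every library. Within each group, the library with the most marker RNA, KO replicate 1 and WT replicate 2, also had the most C1galt1. Below these the order was the same in WT but not in KO. There, replicate 2 had more marker RNA than replicate 3 but less C1galt1. The part of these markers in the C1galt1 values was not tested. In bulk RNA, fewer cells of a type and less RNA per cell cannot be told apart.

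C1galt1c1 encodes Cosmc, without which C1galt1 protein is not active. Its level was 43.2, 46.5, 45.2 and 50.5 CPM in KO replicates 1 to 4, against 35.4, 39.3 and 45.3 CPM in WT replicates 1 to 3. The groups overlapped, since WT replicate 3 was as high as KO replicate 3. The log2 fold change was 0.21 (SE 0.16, 95% interval -0.14 to 0.57, edgeR adjusted p = 0.568). It lay between 0.11 and 0.30 under all 20 alternatives. The gene is on chromosome X (38630785 to 38635087, minus strand). Per transcript length, Cosmc RNA stood above C1galt1 RNA in every library, by a TPM ratio of 2.33 to 5.62 in KO and 1.19 to 2.29 in WT, and this ratio was chosen after its values were seen. TPM, the authors' level per effective length and relative to the whole library, is used here mainly to set genes beside each other within a library. Ranges, means and shares in TPM are also given by group, and these were not tested.

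Gcnt1, which commits core 1 to the core 2 branch, was close to equal between the groups. It had 47.5, 45.3, 53.9 and 43.2 CPM in KO replicates 1 to 4, against 54.2, 46.1 and 52.0 CPM in WT replicates 1 to 3. The ranges overlapped over most of their length. Their log2 fold change was -0.10 (SE 0.15, 95% interval -0.44 to 0.24, edgeR adjusted p = 0.794), and it stayed between -0.19 and -0.03 under all 20 alternatives. A difference of more than 0.44 in either direction lay outside this interval. Transcript Gcnt1-203 carried 93.4% to 97.5% of the gene's reads in KO and 93.7% to 98.7% in WT.

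**Figure D2:**
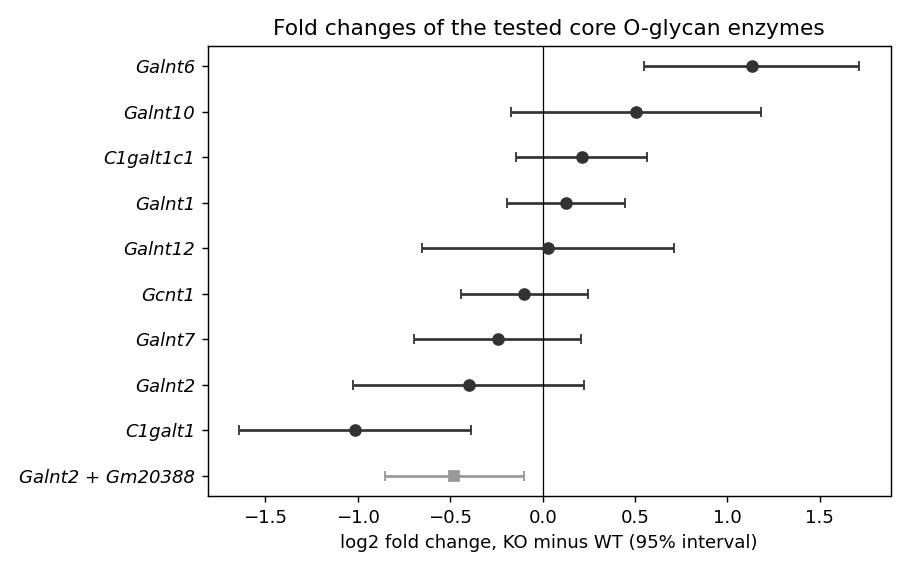
Log2 fold change, KO minus WT, with its 95% interval (x axis) for the 9 tested core O-glycan enzymes, ordered by size, and for Galnt2 summed with the overlapping gene Gm20388 (grey square). The intervals of Galnt6, C1galt1 and the Galnt2 sum leave out 0.

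Galnt6 was the GalNAc-transferase with the largest difference among those tested. It had 46.7, 49.0, 65.1 and 78.3 CPM in KO replicates 1 to 4, against 37.5, 24.6 and 19.8 CPM in WT replicates 1 to 3. All 4 KO libraries lay above the 3 WT libraries, with KO replicate 4 the highest and WT replicate 1 nearest to the KO group. The means were 59.8 ± 14.8 CPM in KO (SD, n = 4) and 27.3 ± 9.14 CPM in WT (SD, n = 3). The log2 fold change of 1.13 did not pass (SE 0.26, 95% interval 0.55 to 1.71, edgeR adjusted p = 0.0575). DESeq2 called it at 1.11 (adjusted p = 0.00184), and limma voom called it with an adjusted p of 0.0319. By edgeR it was called with sex as a covariate (adjusted p = 0.04), with no filter (adjusted p = 0.0369), with the stricter filter (adjusted p = 0.0449) and at 1.42 when WT replicate 1 was left out (adjusted p = 0.0384). In the 5 libraries with Y-linked expression it was at 0.79 (edgeR adjusted p = 0.17), and at 0.88 with KO replicate 4 and WT replicate 2 both left out. Galnt6 is on chromosome 15 (100691813 to 100729376, minus strand), and the antisense gene Galnt6os lies within it. Wherever exons of these genes overlap, unstranded reads cannot be told apart. Cd48, given above, and Flt3, a receptor of multipotent progenitors, also ran higher in KO. Flt3 was at 27.4 to 63.2 CPM in KO and 14.5 to 25.2 CPM in WT, at a log2 fold change of 1.15 that did not pass (edgeR adjusted p = 0.124). The part of these genes in the Galnt6 values was not tested.

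**Figure D3:**
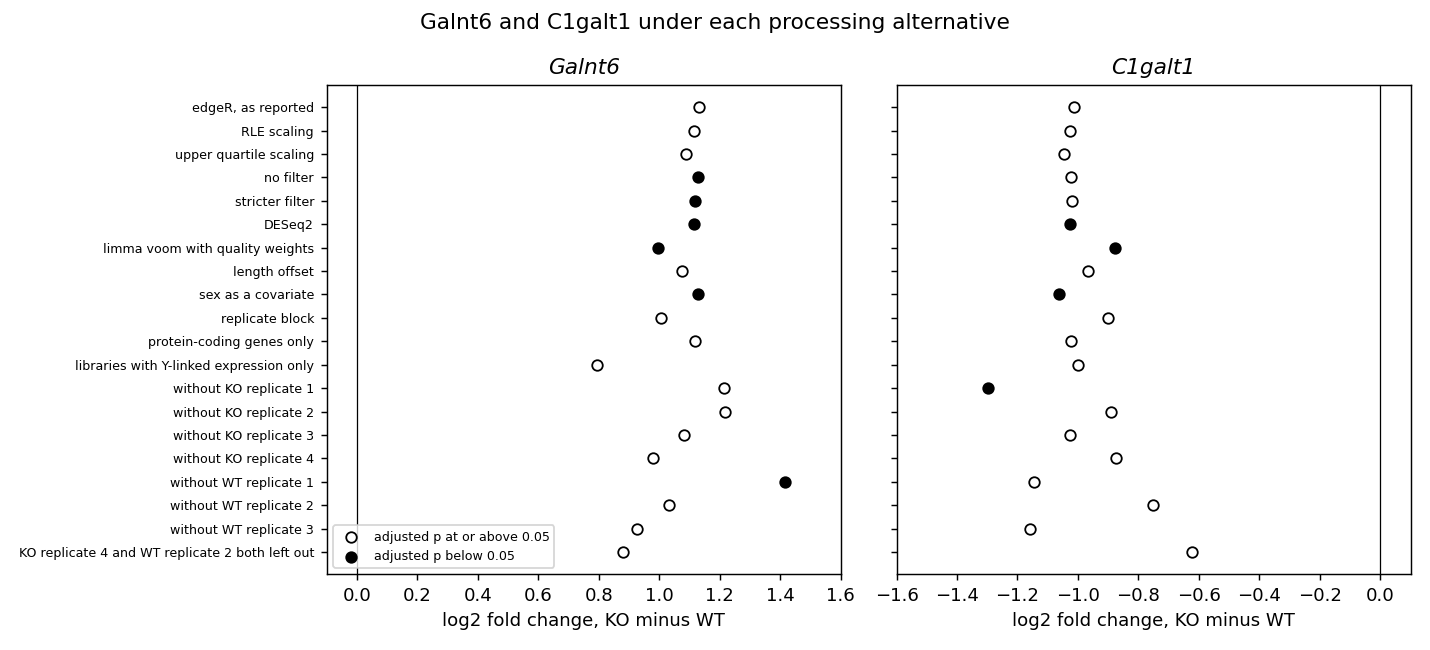
Log2 fold change, KO minus WT (x axis), of Galnt6 and C1galt1 in the edgeR fit as reported and under each processing alternative (rows), filled where the adjusted p was below 0.05. Every Galnt6 value lies above 0, from 0.79 to 1.42, and every C1galt1 value below it, from -1.30 to -0.62.

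The sequence before the Galnt6 start is shown with those of Galnt7 and Galnt10, other GalNAc-transferases whose groups overlapped, to set the member that was apart in this direction beside members of the same family that were not. Each lies outside the annotated exons and is the 250 bases 5' of the most upstream RefSeq start (GRCm38.p6), read along the gene's strand, at chr15:100729377-100729626 (minus), chr8:57653056-57653305 (minus) and chr11:57645192-57645441 (plus). Capitals mark GGGCGG or its complement CCGCCC, the GC box.
Galnt6: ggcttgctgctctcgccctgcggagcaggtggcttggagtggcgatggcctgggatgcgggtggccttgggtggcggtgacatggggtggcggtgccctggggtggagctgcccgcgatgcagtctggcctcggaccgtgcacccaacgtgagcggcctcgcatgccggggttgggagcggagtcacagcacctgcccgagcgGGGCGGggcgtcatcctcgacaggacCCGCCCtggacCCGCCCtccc
Galnt7: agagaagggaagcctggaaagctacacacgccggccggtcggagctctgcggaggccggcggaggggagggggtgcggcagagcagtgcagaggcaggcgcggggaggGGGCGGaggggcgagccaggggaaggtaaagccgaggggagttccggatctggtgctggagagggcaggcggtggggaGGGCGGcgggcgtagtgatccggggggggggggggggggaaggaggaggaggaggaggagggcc
Galnt10: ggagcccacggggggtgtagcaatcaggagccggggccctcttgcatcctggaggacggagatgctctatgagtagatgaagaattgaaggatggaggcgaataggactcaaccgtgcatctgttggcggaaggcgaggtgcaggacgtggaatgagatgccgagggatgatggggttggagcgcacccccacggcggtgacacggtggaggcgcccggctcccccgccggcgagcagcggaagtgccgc
The GC box occurred 3 times in the Galnt6 window, 2 times in that of Galnt7 and 0 times in that of Galnt10, and 32.7% of 32851 RefSeq promoter windows of the same length held at least 1. TATAAA, searched on both strands, was in none of the 3 and in 12.4% of all windows. CG pairs numbered 22, 19 and 20 in the Galnt6, Galnt7 and Galnt10 windows, above the median of 6 over all windows. Galnt6 has another RefSeq start downstream, whose window (chr15:100720478-100720727) held 0 GC boxes and 10 CG pairs. Which start these cells use was not tested. These matches describe the letters only.

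Galnt1, a broadly expressed enzyme that starts O-glycans on many proteins, was the most abundant member. It had 201.6, 223.5, 198.7 and 227.1 CPM in KO replicates 1 to 4, against 188.8, 179.7 and 216.6 CPM in WT replicates 1 to 3. WT replicate 3 lay within the KO range. Galnt1 differed by a log2 fold change of 0.13 (SE 0.14, 95% interval -0.20 to 0.45, edgeR adjusted p = 0.717). With the offset for transcript length it was 0.33 (edgeR adjusted p = 0.323). Galnt1 held 42.5% to 51.6% of the summed TPM of the 19 GalNAc-transferase genes in KO and 30.8% to 45.5% in WT, with Gm20388 counted in the sum. In TPM its ranges were apart, at 65.5 to 76.7 in KO and 35.2 to 57.8 in WT, unlike in CPM. The short transcript Galnt1-203 (980 nt) had 106.7 to 338.1 estimated reads in KO and 25.7 to 41.8 in WT. Its part in the TPM values was not tested. Galnt1 reads were divided differently between libraries. Transcript Galnt1-208 took 0%, 0%, 0% and 31.8% of them in KO replicates 1 to 4, against 7.5%, 3.14% and 48.0% in WT replicates 1 to 3. The high libraries, KO replicate 4 and WT replicate 3, are the pair with low Y-linked RNA. All 31-base stretches of Galnt1-208 are also in Galnt1-206, so no read assigned to it has sequence of its own at that length, and the division is uncertain.

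Galnt2, another widely expressed initiating enzyme, cannot be read from its own rows alone. Galnt2 had 21.2, 27.7, 22.6 and 31.5 CPM in KO replicates 1 to 4, against 47.5, 19.5 and 35.01 CPM in WT replicates 1 to 3, and WT replicate 2 was the lowest of all. It differed by a log2 fold change of -0.40 (SE 0.28, edgeR adjusted p = 0.545). The read-through gene Gm20388 covers the locus on chromosome 8 (124231391 to 124345724 for Galnt2), and its transcript holds 93.7% of the 31-base stretches of Galnt2-201. In WT replicate 2 the full-length Galnt2-201 was given 0 reads and Gm20388 543.5, while in KO replicate 2 and WT replicate 1 Gm20388 was given 0. Summed over both genes, a step chosen after the values were seen, the levels were 33.0, 27.7, 29.4 and 35.3 CPM in KO replicates 1 to 4, against 47.5, 44.9 and 38.6 CPM in WT replicates 1 to 3. All 4 KO sums then lay below the 3 WT sums. The log2 fold change of the sum was -0.48 (SE 0.17, 95% interval -0.85 to -0.10), and it did not pass (edgeR adjusted p = 0.219). Galnt2 alone was at -0.10 without WT replicate 1 and at -0.70 without WT replicate 2. It was at -0.98 with the length offset (edgeR adjusted p = 0.0745), at -0.81 with KO replicate 4 and WT replicate 2 both left out (edgeR adjusted p = 0.0635) and at -0.65 by limma voom (adjusted p = 0.127). In TPM, its ranges were apart, at 18.1 to 27.6 in KO and 30.5 to 40.9 in WT. All 416.4 Galnt2 reads of WT replicate 2 were assigned to Galnt2-204, a processed transcript of 511 nt. The TPM and the length offset of that library depend on this assignment, so neither settles the level of Galnt2.

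**Figure D4:**
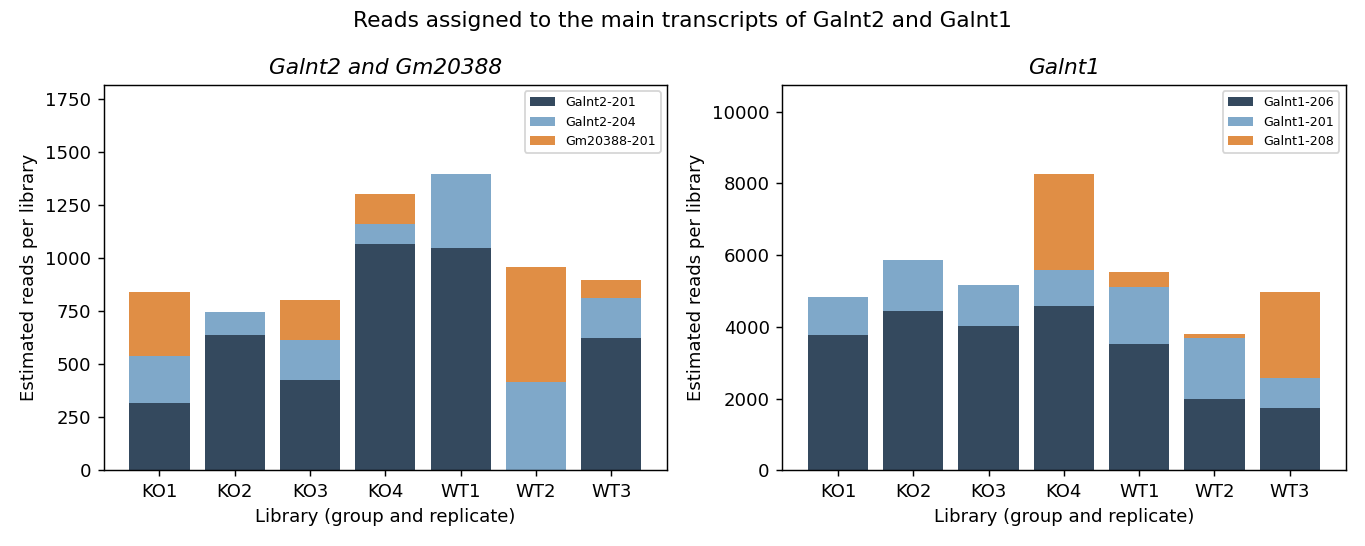
Estimated reads per library (y axis) assigned to the main transcripts of Galnt2 with Gm20388 (left) and of Galnt1 (right) in 4 KO and 3 WT libraries (x axis). Gm20388 takes 543.5 reads in WT replicate 2, where Galnt2-201 has 0, and Galnt1-208 is prominent in KO replicate 4 and WT replicate 3.

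Galnt7 and Galnt10 prefer substrates that already carry a GalNAc. Galnt7 had 40.5, 26.8, 33.8 and 30.8 CPM in KO replicates 1 to 4, against 35.8, 48.2 and 33.2 CPM in WT replicates 1 to 3. Its groups overlapped, and the log2 fold change was -0.24 (SE 0.20, 95% interval -0.70 to 0.21, edgeR adjusted p = 0.611). Galnt10 had 6.48, 8.43, 8.12 and 13.5 CPM in KO replicates 1 to 4, against 6.90, 5.95 and 6.47 CPM in WT replicates 1 to 3. KO replicate 4 stood above the rest and KO replicate 1 lay within the WT range. The log2 fold change of Galnt10 was 0.51 (SE 0.31, 95% interval -0.17 to 1.18, edgeR adjusted p = 0.482), and it was 0.26 without KO replicate 4.

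Galnt12, another initiating enzyme, lies 6.24 Mb from B4galt1 on chromosome 4 (47091909 to 47123070, plus strand). It had 8.98, 13.6, 12.7 and 21.7 CPM in KO replicates 1 to 4, against 16.6, 10.7 and 14.5 CPM in WT replicates 1 to 3. The KO libraries were both the lowest and the highest of the 7. For Galnt12 the log2 fold change was 0.03 (SE 0.31, 95% interval -0.65 to 0.71, edgeR adjusted p = 0.973). Its sign turned with the scaling, at -0.014 with upper quartile scaling.

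Galnt3, whose loss in mice and humans disturbs phosphate balance, was near the limit of detection. It had 0, 13, 9 and 37 estimated reads in KO replicates 1 to 4, against 0, 0 and 2 in WT replicates 1 to 3. It was not tested, since too few libraries passed the filter on low counts. KO replicate 1 had no read, as had WT replicates 1 and 2, so the groups overlapped, and KO replicate 4 was the deepest library. Without the filter the adjusted p was 0.302 by edgeR.

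Levels per transcript length gave the order of the members in each group. In KO, Galnt1 led at 68.8 ± 5.32 TPM, followed by C1galt1c1 at 36.4 ± 6.28, Galnt2 at 22.5 ± 4.71, Galnt6 at 18.3 ± 6.36, Gcnt1 at 12.3 ± 1.18, C1galt1 at 9.39 ± 2.79, Galnt7 at 8.88 ± 1.51, Galnt12 at 8.24 ± 3.93, Galnt10 at 2.91 ± 1.42 and Galnt3 at 0.318 ± 0.486 TPM (SD, n = 4). From Galnt2 to Galnt10 the ranges of neighbours in this order overlapped. In WT, the order was Galnt1 at 46.9 ± 11.3 TPM, Galnt2 at 37.5 ± 6.00, C1galt1c1 at 26.4 ± 6.11, C1galt1 at 15.4 ± 1.87, Gcnt1 at 10.99 ± 1.61, Galnt7 at 8.07 ± 0.205, Galnt6 at 7.22 ± 2.61, Galnt12 at 7.03 ± 1.79, Galnt10 at 1.80 ± 0.475 and Galnt3 at 0.00789 ± 0.0137 TPM (SD, n = 3). The ranges of neighbours overlapped from Galnt1 to C1galt1c1 and from Galnt7 to Galnt12. Those of Galnt1 and C1galt1c1 themselves did not overlap. The places of Galnt2 are uncertain, as its reads are shared with Gm20388. Galnt6 stood above C1galt1 in all 4 KO libraries, by a TPM ratio of 1.01, 2.06, 2.02 and 3.34 in replicates 1 to 4, and below it in all 3 WT libraries, at 0.72, 0.328 and 0.395. In KO replicate 1 the genes were almost level. This pair was chosen after its values were seen.

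**Figure D5:**
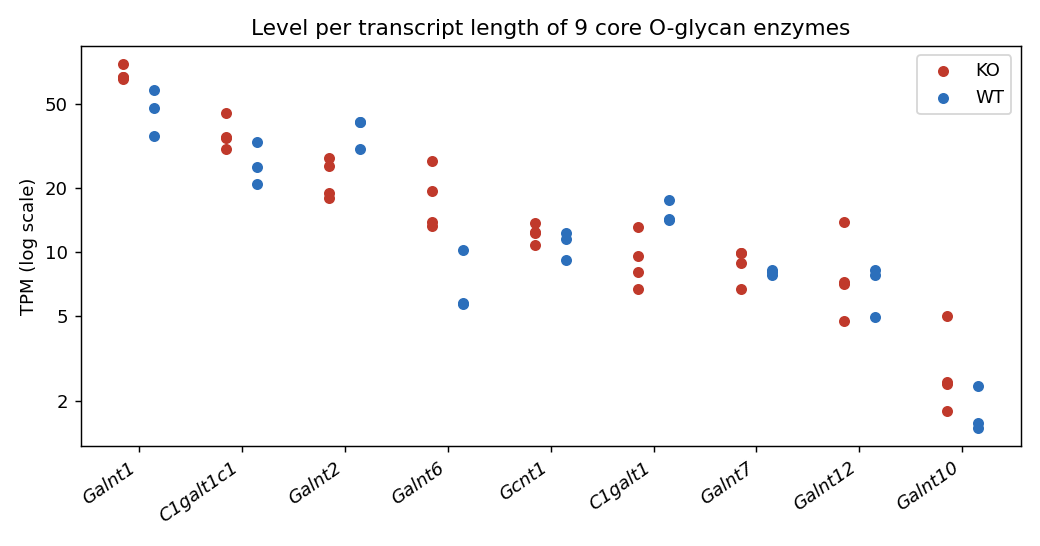
TPM on a log scale (y axis) of 9 core O-glycan enzymes (x axis, in the order of their KO means) in 4 KO and 3 WT libraries (points). Galnt1 and C1galt1c1 lead in KO, and C1galt1 and Galnt6 change places between the groups.

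The rest of the pathway gave few calls. Of the 12 other GalNAc-transferases, 4 were tested and edgeR called 0 (0 at an unadjusted p below 0.05, and 0 by DESeq2 and by limma voom), with a median log2 fold change of 0.15. Galnt9 and Galntl5 had 0 reads in all libraries. The smallest p-values belonged to Galnt4 at -0.56 (edgeR adjusted p = 0.384) and Galnt11 at 0.32 (edgeR adjusted p = 0.568). Among 11 genes of O-glycan branching and chain extension, 9 were tested and edgeR called 0. The unadjusted p was below 0.05 for 2 higher and 2 lower of the 9, beside 14.6% of all genes in either direction. DESeq2 called 1 higher and limma voom 0, beside 5.9% and 4.82% of all genes, and the median was -0.20. Fut7, the fucosyltransferase that makes selectin ligands, had 12.5, 20.9, 14.2 and 39.9 CPM in KO replicates 1 to 4, against 8.05, 3.51 and 9.23 CPM in WT replicates 1 to 3. All KO libraries lay above WT, at a log2 fold change of 1.66 (SE 0.46, edgeR adjusted p = 0.11, DESeq2 adjusted p = 0.00539). Fut7 was also called with the sex covariate (edgeR adjusted p = 0.0202). It was at 1.19 without KO replicate 4 and at 0.85 with that library and WT replicate 2 both left out. Chst2, a sulfotransferase, was at 0.135 to 0.987 CPM in KO and 1.43 to 4.36 CPM in WT (log2 fold change -1.89, edgeR adjusted p = 0.231).

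O-glycan sialyltransferases and sugar supply were likewise without calls. Over all genes tested, 14.6% had an edgeR unadjusted p below 0.05. Of 8 sialyltransferases, 7 were tested and edgeR called 0. The unadjusted p was below 0.05 for 1 lower gene, with 0 called by DESeq2 and by limma voom, and a median log2 fold change of 0.13. St3gal1, which caps core 1 with sialic acid, was at 37.2 to 47.1 CPM in KO and 47.7 to 80.1 CPM in WT, at -0.59 (edgeR adjusted p = 0.194). It was at -0.38 without WT replicate 2 and at -0.31 with the length offset, and its TPM ranges overlapped, at 9.29 to 16.6 in KO and 10.3 to 14.2 in WT. St3gal2 was at -0.43 (edgeR adjusted p = 0.515). All 15 genes of nucleotide sugar synthesis and transport were tested and edgeR called 0. The unadjusted p was below 0.05 for 1 higher gene, with 0 called by DESeq2 and by limma voom, and a median of 0.04. Pgm3, an enzyme of UDP-GlcNAc synthesis, was at 0.87 (edgeR adjusted p = 0.318). Without KO replicate 4 or without WT replicate 2 it was at 0.54, and at 0.22 without both. Gfpt1, which starts that route, was at -0.64 (edgeR adjusted p = 0.344). Its sign turned with the length offset, to 0.15, and it was at -0.28 without WT replicate 2. Of 13 enzymes of other kinds of O-glycosylation, edgeR called 0. The unadjusted p was below 0.05 for 1 lower gene, with 0 called by DESeq2 and by limma voom, and a median of -0.04. B3glct was at -0.47 (edgeR adjusted p = 0.323) and Pomgnt1 at 0.41 (edgeR adjusted p = 0.453).

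Among 15 surface proteins that carry mucin-type O-glycans, 1 fell and 0 rose by edgeR, with a median log2 fold change of 0.13. Over all genes, 2.26% were called in either direction. The unadjusted p was below 0.05 for 4 higher and 3 lower of the 15, beside 14.6% of all genes. Ranges were apart higher for 3 and apart lower for 2, beside 15.7% of all genes. Gp1ba, the heavily O-glycosylated platelet receptor for von Willebrand factor, had 8.63, 15.01, 10.1 and 22.6 CPM in KO replicates 1 to 4, against 46.2, 49.2 and 34.3 CPM in WT replicates 1 to 3. The groups were far apart, and the log2 fold change of -1.61 passed (SE 0.31, edgeR adjusted p = 0.0246). It is also 1 of the 18 megakaryocyte markers. The call was lost, at -1.64 to -1.49 and adjusted p of 0.0707 to 0.0914 by edgeR, without KO replicate 2, KO replicate 3, WT replicate 1 or WT replicate 2. Cd34, a sialomucin of progenitors, was at 228.0 to 499.6 CPM in KO and 123.2 to 201.1 CPM in WT, and its log2 fold change of 1.09 did not pass (edgeR adjusted p = 0.0715). Cd34 was called by DESeq2 (adjusted p = 0.00239) and limma voom (adjusted p = 0.0202), and by edgeR with no filter (adjusted p = 0.0452), with the sex covariate (adjusted p = 0.0224) and when KO replicate 1 was left out (adjusted p = 0.0244). DESeq2 called 3 carriers higher and 2 lower, beside 5.9% of all genes in either direction. Limma voom called 2 higher and 1 lower, beside 4.82% of all genes.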

How the data were processed

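RNA of sorted LT-HSCs was made into libraries with a kit that keeps no strand, per the labels' protocols. The submitters' processing notes name cutadapt, Salmon 0.11.2 and mm10. Which transcripts were quantified was not given in the sources used here. For each transcript, the authors deposited estimated counts, TPM and an effective length. Identifiers were joined without version to GENCODE M21 (GRCm38): 111787 of 112092 transcripts matched, and the other 305 held 0.0836% to 0.123% of reads. Estimated counts were summed to genes and rounded. CPM are counts over the TMM-scaled library size. The 4 KO and 3 WT libraries were compared with edgeR 4.0.16 (R 4.3.3): quasi-likelihood test, TMM, filterByExpr, Benjamini-Hochberg adjustment over all tested genes, no covariates. SE is the absolute log2 fold change over the square root of F. On simulated counts (14366 genes run) it recovered 31% of 100 genes changed 2-fold and 83% of 100 changed 4-fold, and called 7 of 14166 unchanged genes.

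DESeq2 1.42.0, limma 3.58.1 (voom with quality weights), other scalings, filters (stricter: 1 CPM in 3 libraries and 50 reads in total), a length offset, sex (from summed Y-linked genes over 50 CPM), a replicate block and leaving out libraries were alternatives. A planned exact permutation test of the C1galt1 main transcript share had nothing to compare, as 1 transcript took 100% of the reads. Promoter sequences are RefSeq's (GRCm38.p6), and 6 of the 10 genes matched that table. The windows of C1galt1 and Galnt3 overlap annotated exons and are not shown. The genes and lists were chosen with earlier results of these data known. All 10 genes are named, and from each pathway list those called and the 2 of smallest p. PCR reads without molecular identifiers are not independent molecules.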

Additional observations from a re-analysis of the deposited data

Results flagged for a closer look

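Among 27 quantities examined in the 4 KO libraries (levels of the named genes and shares of 4 transcripts), 1 library stood apart from its group in 3. About 1 in 20 would do so by chance. Groups of 3 were not examined. B4galt1 was at 19.3 CPM in KO replicate 1 and 14.6 to 14.9 CPM in the other KO libraries. Galnt1-206 took 54.4% of Galnt1 reads in KO replicate 4 and 72.8% to 74.1% in the others. Galnt1-208 took 31.8% of them in KO replicate 4 and 0% in the others, and these transcripts share sequence.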

How the results depend on the processing

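Counts of genes called depended on the tool. Against 88 higher and 244 lower with edgeR, DESeq2 called 352 higher and 514 lower, limma voom 269 and 439, and sex as a covariate 218 and 396. The length offset called 213 higher and 250 lower. It moved the share of higher calls by over 10 percentage points, as did DESeq2, limma voom and leaving out KO replicate 3. With KO replicate 4 and WT replicate 2 both left out, chosen after seeing the data, 137 were higher and 310 lower. Leaving out 1 library gave 30 to 130 higher and 157 to 279 lower, with 30 to 45 higher without KO replicate 2, KO replicate 3 or any 1 WT library, and the fewest lower without KO replicate 2.

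Of the core O-glycan enzymes, edgeR called 0 higher and 0 lower. The count higher was 1, Galnt6, with no filter, the stricter filter, DESeq2, limma voom, sex as a covariate and when WT replicate 1 was left out. The count lower was 1, C1galt1, with DESeq2, limma voom, sex as a covariate and when KO replicate 1 was left out. Leaving out 1 library thus gave 0 to 1 higher and 0 to 1 lower. Why the calls differ between tools was not tested.

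Signs turned for 3 named genes. Galnt12 was at -0.014 with upper quartile scaling, -0.25 with limma voom, -0.033 with the length offset, -0.25 with the replicate block, -0.21 in libraries with Y-linked expression, -0.43 with KO replicate 4 and WT replicate 2 both left out, and -0.24 to 0.18 with 1 library left out, negative without KO replicate 4 (-0.24) and without WT replicate 2 (-0.15). B4galt1 was at -0.47 to 0.037 with 1 library left out, positive without WT replicate 2, and at 0.081 with that library and KO replicate 4 both left out. Gfpt1, at -0.64 by edgeR, was at 0.15 with the length offset. The cause was not tested. The other 8 tested core enzymes kept their sign under every alternative.

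Deviations of same-numbered samples correlated at -0.0525, -0.12 and -0.0392, and those of differently numbered samples at -0.251 to 0.248. With so few libraries, these values cannot show whether replicate numbers pair the samples. With the replicate block 58 genes were higher and 182 lower. Galnt3, with at most 37 reads in a library, was at the limit of this depth.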
